A study of Arabidopsis thaliana with 30 samples.

Results

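The comparison was of polysomal RNA from Arabidopsis seedlings after long and after short hypoxia. Its members were chosen by their titles, the 3 arrays of immunopurified RNA after 9 h of hypoxia without recovery and the 3 after 2 h, which are 6 of the 30 arrays in all. The study measured total and polysomal RNA in 5 conditions with 3 independent replicate experiments each. All seedlings were 7 days old, of the genotype 35S:His6FLAG-RPL18B (Col-0), a line with 1 transgene copy in which the 35S promoter drives a tagged protein of the large ribosomal subunit. Polysomal RNA was the RNA pulled down through that tag from whole, pulverised seedlings, so it samples every cell type in which the promoter is active, and it was made from many plants at a time. Hypoxia and the air controls (2 h and 9 h) began as the light period ended and took place in dim light, so a 9 h sample was also taken later in the night than a 2 h sample. Seedlings of the air groups carried the same transgene.

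Plants deprived of oxygen cannot respire fully, make ATP by glycolysis with ethanol and lactate fermentation, and restrict protein synthesis. Transcription factors of the ethylene response factor family, which are stabilised when oxygen is low, turn on a core set of hypoxia genes. Most other mRNAs lose ribosomes, so RNA bound to tagged ribosomes reports which mRNAs are being held for translation rather than which are present. Heat shock proteins, whose transcripts rise under many stresses, bind unfolded proteins.

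Values are levels, given as log2 signal minus the mean of the array over its 22746 probe sets, so that a level of 0 is the array's mean. A change is the 9 h mean minus the 2 h mean of such levels, with the standard error of a limma model over all 30 arrays, and "rose" or "fell" means a Benjamini-Hochberg adjusted p under 0.05. The model pools the spread of each probe set over the 10 groups. Neither the standard error nor the p therefore reflects a wider spread within the groups compared. The deposited array means were 4.536 ± 0.01 (SD, n = 3) at 2 h and 4.342 ± 0.011 (SD, n = 3) at 9 h of hypoxia. They lay at 5.364 and 5.358 in polysomal RNA from air. The 18 hybridisation control sets gave 8.656 at 2 h and 8.643 at 9 h. Changes are therefore relative to the mean signal of each array, and whether the amount of polysomal RNA differed was not tested. Replicate arrays correlated with r between 0.9866 and 0.9945 at 2 h and between 0.9894 and 0.9919 at 9 h. Replicate 2 of the 2 h hypoxia experiment stood apart for heat shock genes. The median level of 10 small heat shock protein genes was 0.05 on that polysomal array against 1.72 and 2.55 on the others, and -0.78 against 0.21 and 0.39 in total RNA of the same experiment. Markers of green tissue were high, and those of roots were mixed. The median of 10 nuclear photosynthesis genes was 6.61 to 6.77 over the 6 arrays. Levels of PYK10, a beta-glucosidase of root endoplasmic reticulum bodies, were 6.77 to 7.34. The median of the 4 measured root markers, PYK10 among them, was only -1.70 to -1.37. No probe set was named for RPL18B, so the tagged gene was not checked.

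Between 2 h and 9 h of hypoxia the polysomal pool gained transcripts of small heat shock proteins and their co-chaperones, and lost transcripts of ribosomal proteins. Over all probe sets tested, 3641 rose, or 16%, and 3988 fell, or 17.5%. Changes of at least 2-fold were fewer, with 548 rises and 869 falls, and the median change was 0.06. Groups that did not overlap were found for 22.7% of probe sets with the 9 h arrays higher and for 19.1% with the 9 h arrays lower. Without centring, 1675 probe sets rose and 6671 fell, and without replicate 2 of all groups 2230 rose. In these bulk samples, fewer cells of a type and less polysomal RNA per cell cannot be told apart.

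The largest rise was that of AT1G63530, for which no function is given here. Its levels at 2 h were 1.98, 0.01 and 2.21, and at 9 h 5.88, 5.53 and 6.04. All 9 h arrays lay above all 2 h arrays, and the change was 4.42 ± 0.42 (SE, adjusted p = 8.4e-09), or 21.4-fold. SAL2, a phosphatase of inositol phosphates and of phosphoadenosine phosphate, had levels of -0.81, -1.10 and -0.76 at 2 h and of 2.29, 2.51 and 2.40 at 9 h. It was below the array mean in every 2 h replicate and well above it in every 9 h replicate, a rise of 3.29 ± 0.17 (SE, adjusted p = 1.0e-12). AT1G68240, a basic helix-loop-helix protein, went from -1.19, -1.56 and -1.08 to 2.06, 2.31 and 2.50. The groups were far apart, and the rise was 3.57 ± 0.20 (SE, adjusted p = 3.0e-12). AT1G59660, related to the nuclear pore protein Nup98, rose by 3.18 ± 0.51 (SE, adjusted p = 2.4e-05), from 2.56, -0.02 and 2.89 to 5.16, 4.98 and 4.82. Its spread at 2 h came from replicate 2, as it did for the heat shock genes. AT1G08310 and AT2G20500 also rose, by 3.61 and 3.28, without overlap.

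The 12 largest falls included genes of cell wall enzymes. AT3G54400, an aspartyl protease, had levels of 3.55, 4.18 and 3.57 at 2 h and of 0.22, 0.58 and 0.55 at 9 h. The groups did not overlap, and the change was -3.32 ± 0.20 (SE, adjusted p = 1.6e-11), or 9.97-fold lower. ATPMEPCRB, a pectin methylesterase, which removes methyl groups from pectin, had levels of 1.22, 0.02 and 1.43 at 2 h and of -1.92, -1.74 and -2.04 at 9 h, a change of -2.79 ± 0.42 (SE, adjusted p = 1.1e-05). The 9 h levels were among those of the dimmer probe sets. AT3G07010, a pectate lyase, fell by 2.37, from 0.98, 2.07 and 0.93 to -0.95, -1.37 and -0.83. AT4G11190, of the dirigent family that guides lignan and lignin coupling, changed by -2.65 ± 0.21 (SE), from 2.45, 2.55 and 2.74 to -0.16, 0.06 and -0.12. Both lay below every 2 h array at 9 h. The lipase-like genes AT1G75900 and AT4G28780 fell by 2.45 and 2.42. AT5G54370 (-2.80), AT1G62780 (-2.72), AT1G56050 (-2.54), ZW9 (-2.34), with a TRAF-like domain, and AT5G63060 (-2.25), of the Sec14 lipid transfer family, fell as well. Among these genes AT3G54400, AT1G62780 and AT1G75900 also fell in air, by 0.72, 0.82 and 0.83. The difference between hypoxia and air passed for each.

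**Figure D1:**
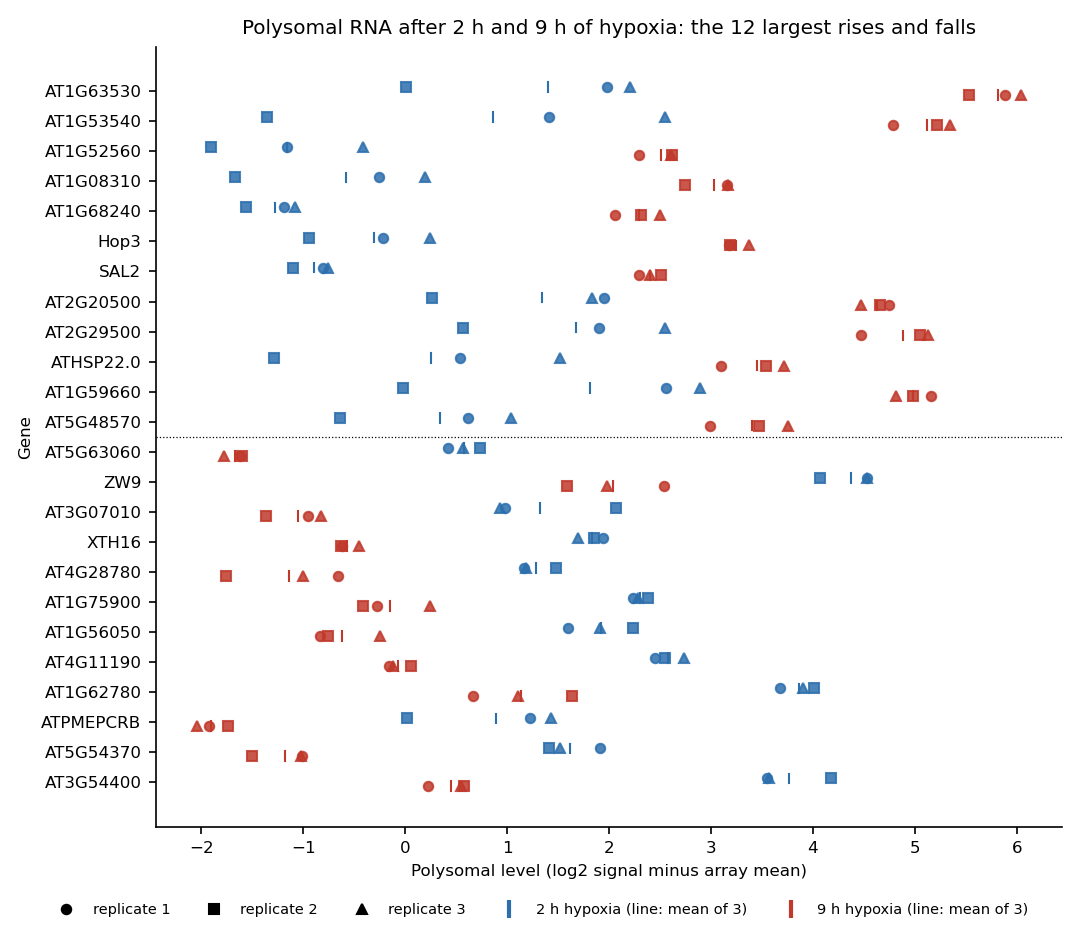
Levels in polysomal RNA (log2 signal minus array mean, x axis) of the 12 genes with the largest rises and the 12 with the largest falls, with 1 point per array, blue for 2 h and red for 9 h of hypoxia, and short lines at the means of 3. The 2 colours do not overlap for any of the 24 genes, and the square of replicate 2 is the lowest 2 h point of all 12 rising genes, for example 0.01 against 1.98 and 2.21 for AT1G63530.

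Small heat shock proteins hold unfolding proteins in solution and are scarce in unstressed leaves and roots. Of 10 measured members 8 rose and none fell, beside 16% and 17.5% of all probe sets, and their median change was 2.72 where that of all 13355 named genes was 0.07. AT1G53540, a class I cytosolic member, had levels of 1.41, -1.36 and 2.55 at 2 h and of 4.79, 5.22 and 5.35 at 9 h. The lowest 9 h array exceeded the highest 2 h array, and the rise was 4.26 ± 0.54 (SE, adjusted p = 7.9e-07), or 19.1-fold. AT1G52560 rose by 3.67 ± 0.29 (SE), from -1.16, -1.90 and -0.41 to 2.29, 2.62 and 2.61. AT2G29500, another class I member, rose by 3.21 ± 0.34 (SE), from 1.90, 0.57 and 2.55 to 4.47, 5.05 and 5.13. ATHSP22.0, the member of the endoplasmic reticulum, rose by 3.20 ± 0.41 (SE), from 0.54, -1.29 and 1.52 to 3.10, 3.54 and 3.72. In each of these 4 genes the 9 h arrays were close together and the 2 h arrays were spread, with replicate 2 lowest. The pooled standard errors and p-values do not reflect that wider spread at 2 h. By pairs of the same replicate number, the median change over the 10 members was 2.17, 4.29 and 1.81. With only the 6 arrays fitted, or without the 2 h array of replicate 2, 7 of the 10 rose. In total RNA from hypoxia 8 of the 10 rose too and none fell, with a median change of 2.72. The difference between polysomal and total RNA passed for none of the 10.

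Chaperones and co-chaperones moved the same way, with 6 of 8 measured members rising, none falling (1 without the 2 h array of replicate 2) and a median change of 1.47. The list held 42 genes, and the others could not be matched to a probe set by name. Among all probe sets 16% rose and 17.5% fell. Hop3, which joins large heat shock proteins to each other, rose by 3.55 ± 0.25 (SE, adjusted p = 1.2e-10), from -0.22, -0.94 and 0.24 to 3.18, 3.19 and 3.37. AT5G48570, a peptidyl-prolyl isomerase that binds heat shock proteins, rose by 3.07 ± 0.38 (SE), from 0.62, -0.64 and 1.04 to 2.99, 3.47 and 3.76. AT2G20560, a DnaJ-type co-chaperone, rose by 2.21 ± 0.32 (SE), from 1.64, 0.13 and 2.27 to 3.45, 3.64 and 3.58. None of these groups overlapped. Fes1A, a nucleotide exchange factor that protects cytosolic chaperones, rose by 1.87 ± 0.19 (SE), from 1.15, 0.71 and 1.47 to 2.78, 3.04 and 3.13. In polysomal RNA from air none of the 8 members passed in either direction, and their median change was 0.41. In total RNA from hypoxia 5 rose and 1 fell, with a median of 1.23. The difference between polysomal and total RNA passed for none of the 8.

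**Figure D2:**
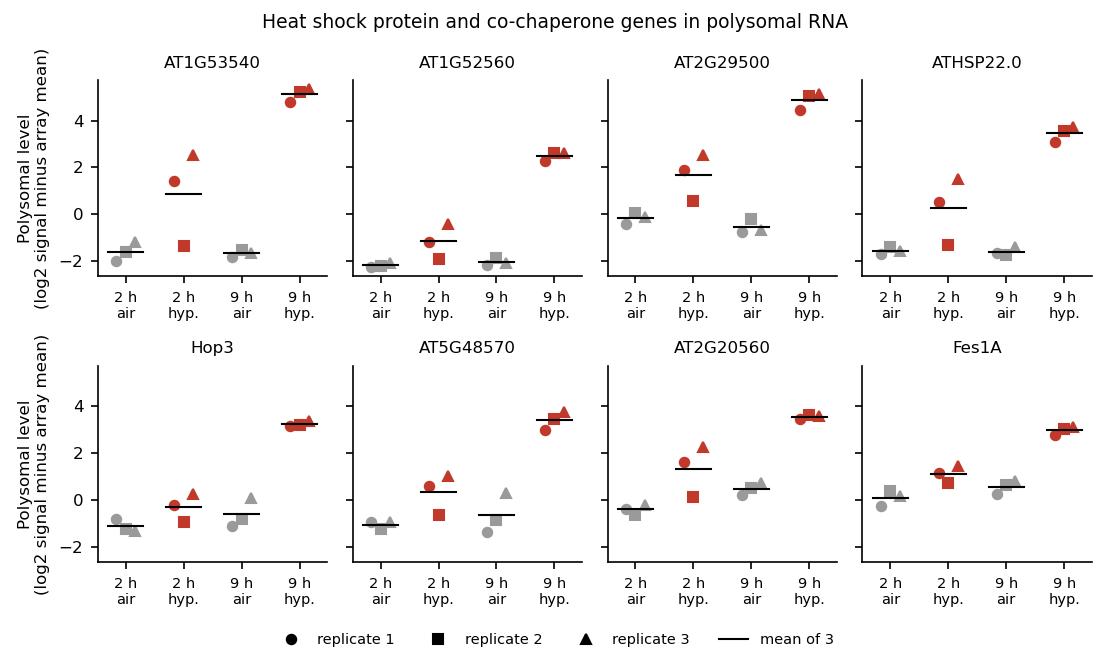
Levels (log2 signal minus array mean, y axis) of 4 small heat shock protein genes and 4 co-chaperone genes on the 12 polysomal arrays from air (grey) and hypoxia (red), with the mean of 3 as a line. Every 9 h hypoxia array lies above the other 9 arrays, and replicate 2 at 2 h of hypoxia lies nearest to the air arrays, as at -1.36 for AT1G53540 against -1.99, -1.62 and -1.16 in air.

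Protein folding in the endoplasmic reticulum did not move as a block. Of 11 measured members 4 rose and 4 fell, beside 16% and 17.5% of all probe sets, with a median of -0.26. The 4 falls were those of 2 lectin chaperones, a large chaperone and a co-chaperone of the lumen. ATERDJ3B, a co-chaperone of the lumenal chaperone BiP, went from 1.82, 2.26 and 2.04 to 0.60, 0.63 and 0.56, a change of -1.44 ± 0.13 (SE, adjusted p = 3.5e-09). CRT1b, a calreticulin, went from 2.07, 2.39 and 2.19 to 0.81, 0.51 and 1.03, a change of -1.43 ± 0.12 (SE). AT4G16660, of the large heat shock protein family of the lumen, fell by 0.97. The rises included BZIP60, a transcription factor of the unfolded protein response, at 0.94 ± 0.24 (SE, adjusted p = 0.0032), from 3.88, 2.58 and 3.54 to 4.61, 4.10 and 4.11. The call for BZIP60 was lost when only the 6 arrays were fitted, and without replicate 3 the list had 2 rises.

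Core hypoxia genes, which are induced across plant organs by low oxygen, were already high at 2 h. Over the 24 measured members the median level was 4.82 at 2 h and 5.14 at 9 h of hypoxia, beside 0.83 in the 2 h air controls. Of these, 9 rose, 4 fell and 11 did neither between 2 h and 9 h, where 16% of all probe sets rose and 17.5% fell. The median change of 0.10 was -0.09 without centring, with 8 falls. AT3G29970, of the B12D family, rose by 2.81 ± 0.27 (SE, adjusted p = 1.2e-08), from 2.85, 1.93 and 2.93 to 5.38, 5.62 and 5.16. AT3G03270, a universal stress protein, rose by 2.02 ± 0.14 (SE, adjusted p = 7.5e-11), from 4.58, 4.35 and 4.57 to 6.31, 6.66 and 6.58. In both, the groups were separate, and the levels at 2 h were above those in air. AT2G15880, a leucine-rich repeat extensin-like protein, rose by 1.67 ± 0.40 (SE, adjusted p = 0.0018), a call that was lost without replicate 3, and AT4G17670 rose by 1.28 ± 0.19 (SE). PDC2, a pyruvate decarboxylase and so an enzyme of ethanol fermentation, had levels of 5.58, 5.09 and 5.43 at 2 h and of 6.47, 6.29 and 6.44 at 9 h. Its rise was 1.04 ± 0.12 (SE, adjusted p = 2.4e-07), or 2.05-fold, and the 9 h arrays lay above all 2 h arrays. In air PDC2 fell by 2.06, from 1.93, 1.85 and 2.02 to -0.27, -0.07 and -0.04. AT3G10040, known as HRA1, a trihelix factor that damps the hypoxia response, fell by 0.95 ± 0.21 (SE, adjusted p = 0.0011), from 4.13, 4.32 and 3.92 to 3.49, 3.43 and 2.60. CML38, a calmodulin-like protein of hypoxic granules, had levels of 5.84, 5.34 and 5.85 at 2 h and of 6.19, 6.23 and 5.73 at 9 h. These groups overlapped, and the difference of 0.37 ± 0.27 (SE, adjusted p = 0.30) did not pass. The other 11 genes to be named wherever measured, among them ADH1, PDC1 and SUS4, could be matched to no probe set by name and are not analysed here.

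Glycolysis and sucrose breakdown had 7 rises and 3 falls among 14 measured members, with a median of 0.28, and 3 rises without replicate 2 at 2 h. These counts and those of respiration are read beside the 16% of all probe sets that rose and the 17.5% that fell. The pyruvate kinases AT5G63680 and AT5G08570, which make pyruvate and ATP at the end of glycolysis, rose by 1.14 ± 0.14 and 1.03 ± 0.12 (SE). AT5G63680 went from 2.07, 2.02 and 2.02 to 3.05, 3.23 and 3.26, with no overlap. Enzymes of earlier steps moved both ways. The phosphofructokinase subunit AT1G20950, which uses pyrophosphate, fell by 0.92 ± 0.14 (SE), and the enolase ENOC by 0.89 ± 0.10 (SE). The phosphoglucose isomerase AT5G42740 rose by 0.50 and GAPC2, a glyceraldehyde phosphate dehydrogenase, by 0.32, both named after their values were seen, and the call for GAPC2 was lost in 6 of the alternatives. ENOC went from 3.00, 2.93 and 3.06 to 2.04, 2.08 and 2.21. AT4G26390 and AT3G04050 are counted among the rises, at changes of 0.28 and 0.31 and mean levels under -1.50, among the dimmer probe sets. Among 22 nuclear genes of respiration and the citrate cycle, 3 rose and 7 fell, with 3 falls when only the 6 arrays were fitted or without replicate 2, and 2 on the hybridisation controls. The succinate dehydrogenase subunit SDH2-2 fell by 1.00 ± 0.11 (SE), from 3.04, 2.80 and 3.03 to 1.78, 1.87 and 2.20. The cytochrome c gene CYTC-2 rose by 1.19 ± 0.16 (SE), from 4.24, 3.63 and 4.15 to 5.04, 5.52 and 5.03. In air CYTC-2 rose by 0.93, and its difference between hypoxia and air did not pass, while that of SDH2-2 did. Of the fermentation list, 3 genes were measured, and beside PDC2 the aldehyde dehydrogenase ALDH2C4 fell by 0.54, a call lost without replicate 3.

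Genes of autophagy, which recycles cell contents, and of branched-chain amino acid breakdown, which feeds electrons to the respiratory chain, had more rises than falls, by smaller steps and with counts that depended on the setting. Among all probe sets 16% rose and 17.5% fell. Autophagy had 8 rises and no fall among 12 measured members, with a median of 0.51, and 5 rises without replicate 3 or without centring. ATG8F, a ubiquitin-like protein that coats the autophagosome, went from 5.68, 5.39 and 5.49 to 6.33, 6.43 and 6.11, a rise of 0.77 ± 0.10 (SE, adjusted p = 2.0e-06). APG8H, of the same family, rose by 0.78 ± 0.10 (SE), and AT5G50230, which helps attach these proteins to the membrane, by 0.71 ± 0.11 (SE). None of the 8 calls held when the arrays were scaled on the hybridisation controls, where the scale depends on 18 probe sets. Branched-chain amino acid breakdown had 7 rises and 1 fall among 11, with a median of 0.66, and 3 rises without replicate 2 at 2 h, 4 without replicate 3 at 9 h and 2 on the hybridisation controls. IVD, isovaleryl-CoA dehydrogenase, rose by 1.43 ± 0.17 (SE, adjusted p = 2.8e-07), from 3.02, 2.31 and 3.21 to 4.35, 4.12 and 4.36. MCCA, a subunit of methylcrotonoyl-CoA carboxylase, rose by 1.12 ± 0.31 (SE, adjusted p = 0.0070), from 4.27, 2.87 and 4.23 to 5.17, 4.61 and 4.95, a call lost without replicate 2 at 2 h. Mitochondrial stress genes had 4 rises and no fall among 8. AT2G21640, up-regulated by oxidative stress, rose by 2.08 ± 0.20 (SE), from 1.65, 1.47 and 1.37 to 3.33, 3.89 and 3.51, and AT5G09570, with twin cysteine motifs, rose by 1.89 ± 0.14 (SE). Carbon starvation genes had 3 rises and 1 fall among 6, or 2 falls without replicate 2 at 2 h, the fall being AT2G44670 at -2.10 ± 0.18 (SE), from 3.55, 3.10 and 3.39 to 1.26, 1.39 and 1.08. AKINBETA1, a subunit of the starvation kinase SnRK1, rose by 0.88 ± 0.17 (SE), a call lost on the hybridisation controls. In air IVD rose by 0.89, AT2G21640 by 1.29 and ATG8F by 0.49, and the difference between hypoxia and air did not pass for these genes. That difference passed upward for 4 of 12 autophagy genes, 1 of 11 branched-chain genes and 3 of 8 mitochondrial stress genes. It passed downward for 1 branched-chain gene and 2 of 6 carbon starvation genes.

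The counts for signalling and detoxification genes are read beside the 16% of all probe sets that rose and the 17.5% that fell. Of 26 UDP-glycosyltransferases 7 rose and 3 fell, with a median of 0.15, and 6 fell without centring. UGT73B4, UGT73C1 and UGT73B5, whose family adds sugar to small molecules, rose by 2.31 ± 0.17, 1.99 ± 0.15 and 1.94 ± 0.21 (SE). UGT73B4 went from -1.15, -1.60 and -1.37 to 1.20, 0.97 and 0.63, so that no 9 h array was as low as any 2 h array. Calmodulin-like proteins had 5 rises and 2 falls among 15. Without replicate 1 at 9 h 3 rose, without replicate 2 of all groups 2 rose, and 4 fell once replicate number was a block. AT1G21550 rose by 2.47 ± 0.27 (SE), and AT3G10190, also with calcium-binding EF hands, went from 0.38, 1.42 and 0.56 to -1.19, -0.67 and -1.07, a change of -1.76 ± 0.23 (SE). The stress-induced transcription factors had 2 rises and 2 falls among 6, or 1 fall without replicate 2 at 2 h or replicate 3 at 9 h, the largest being WRKY53 at 1.51 ± 0.28 (SE) and bZIP44 at -1.23 ± 0.27 (SE). Of 7 cold and dehydration genes 1 rose, LTI30, a dehydrin, by 0.98 ± 0.19 (SE), and 2 fell, COR15B by 0.51 and LEA4-5 by 0.71. Those calls were lost in 5 and 9 of the alternatives, among them leaving out replicate 2 at 2 h, and neither held without replicate 2 or 3 of all groups. SWEET sugar transporters had 7 rises and 1 fall among 16, but 2 rises without centring or without replicate 3, 3 without replicate 2 and 0 on the hybridisation controls. SWEET11 rose by 0.66 ± 0.13 (SE), a call also lost on those controls, and SWEET17, a fructose transporter of the vacuole, fell by 1.04 ± 0.14 (SE). Among the rises were SWEET8, SWEET9, SWEET10 and SWEET14, which had levels under -1 at both times.

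**Figure D3:**
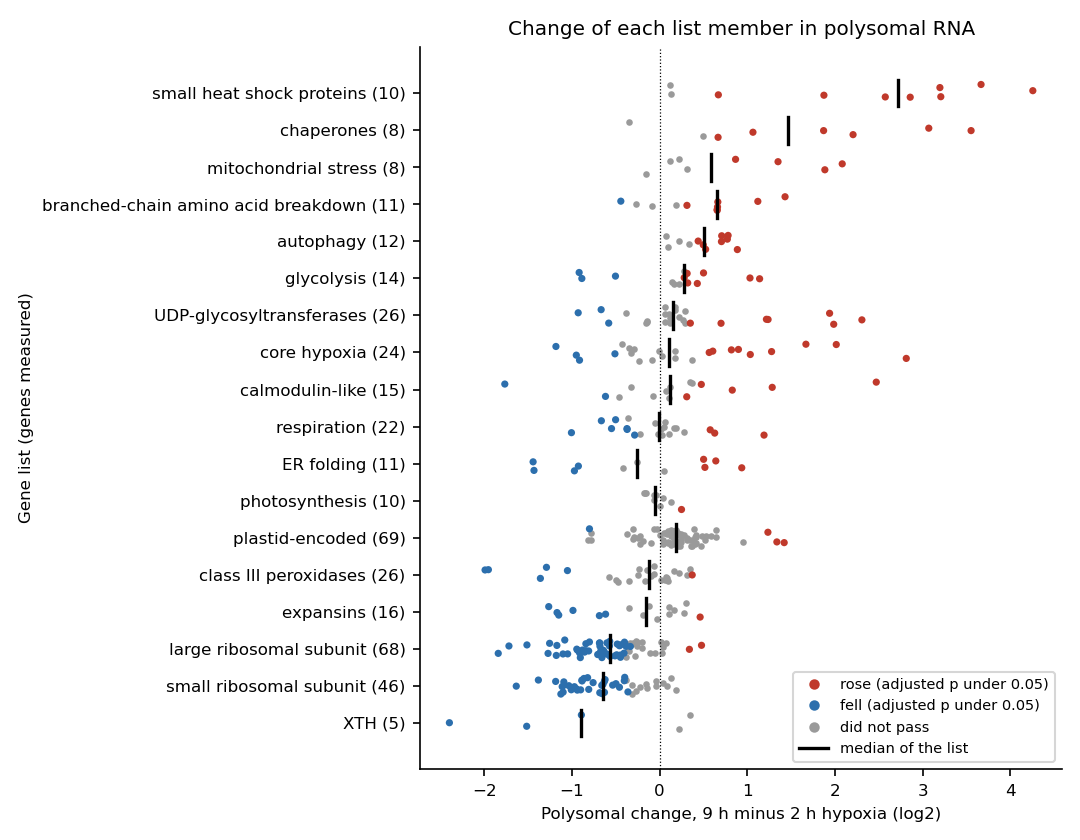
Change in polysomal RNA from 2 h to 9 h of hypoxia (log2, x axis) of each measured member of 18 gene lists (y axis, with the number of genes), red for a rise and blue for a fall that passed, grey otherwise, with the list's median as a line. Small heat shock proteins have a median of 2.72, both ribosomal lists lie mostly below 0, and the core hypoxia list spreads from -1.18 to 2.81.

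Ribosomal protein genes, whose mRNAs are among the most abundant of a growing cell, were lower in the polysomal pool at 9 h. Of 68 measured genes of the large subunit 47 fell and 2 rose, with a median of -0.57. Of 46 of the small subunit 33 fell and none rose, with a median of -0.65, where 17.5% of all probe sets fell and 16% rose. All 3 pairs of the same replicate number showed a lower level at 9 h for 58 and 39 of these genes, where 25.8% of all probe sets did. AT5G67510, of the large subunit, went from 3.24, 4.31 and 3.45 to 1.51, 2.16 and 2.17, a change of -1.72 ± 0.19 (SE, adjusted p = 1.2e-07). AT4G30800, of the small subunit, went from 2.67, 2.90 and 2.84 to 0.64, 1.29 and 1.58, a change of -1.63 ± 0.22 (SE). AT2G32220 and AT5G60670, of the large subunit, changed by -1.84 ± 0.27 and -1.51 ± 0.14 (SE), and AT3G57490, of the small, by -1.38 ± 0.15 (SE). The 9 h arrays were the lower ones for all 5, without overlap. The large-subunit list had a median level of 4.24 at 2 h and 3.89 at 9 h of hypoxia, beside 5.40 in the 2 h air controls. Over all alternatives, 32 to 59 large-subunit and 27 to 40 small-subunit genes fell. Many ribosomal proteins are encoded by near-identical copies, and signals of such copies can be shared. Translation factors had 1 rise and 1 fall among 8, and neither passed without replicate 2 at 2 h.

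**Figure D4:**
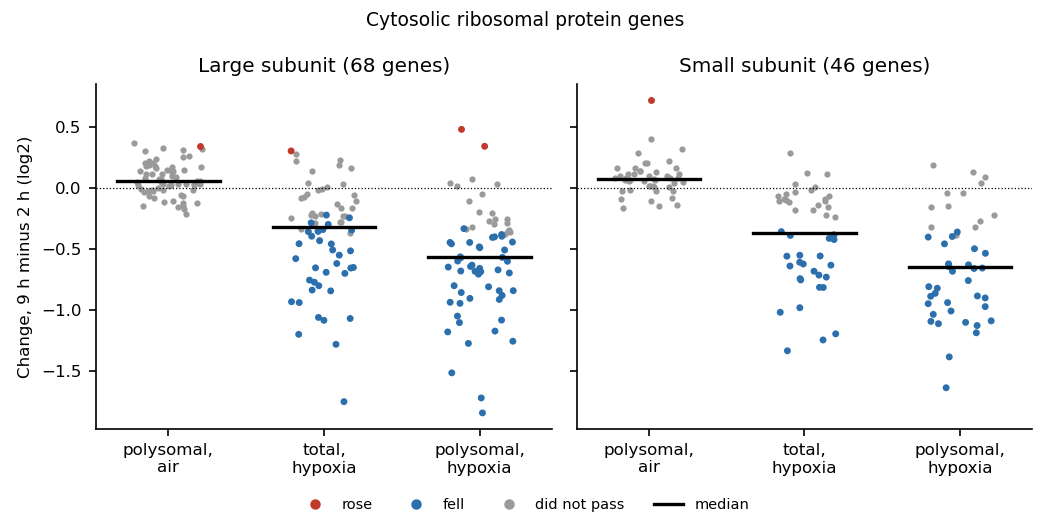
Change from 2 h to 9 h (log2, y axis) of cytosolic ribosomal protein genes in polysomal RNA from air, total RNA from hypoxia and polysomal RNA from hypoxia, with 1 point per gene, red or blue where it rose or fell, and the median as a line. The medians are 0.06 in air, -0.32 in total and -0.57 in polysomal RNA for the large subunit, and 0.08, -0.37 and -0.65 for the small.

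The lists of cell wall and root genes are read beside the 17.5% of all probe sets that fell. Of 5 xyloglucan endotransglucosylases, which cut and rejoin wall polymers, 3 fell and none rose. They were the only measured genes of a list of 24. XTH16 went from 1.94, 1.85 and 1.70 to -0.62, -0.63 and -0.45, a change of -2.40 ± 0.20 (SE, adjusted p = 1.0e-09), and XTH32 from 2.21, 2.24 and 2.32 to 0.70, 0.63 and 0.89, a change of -1.52 ± 0.15 (SE). In both genes the replicates were tight and the groups separate. XTH16 also fell in air, by 1.09, where XTH32 did not pass. The difference between hypoxia and air passed for both. Of 16 expansins, which loosen walls, 6 fell and 1 rose. EXLB1 fell by 1.26 ± 0.17 (SE), and EXPA4 by 1.17 ± 0.27 (SE), the latter not past the test without replicate 2. Of 26 class III peroxidases 5 fell and 1 rose, a share of falls near that of all probe sets, and without centring 10 fell. AT4G30170 went from 0.56, 0.81 and 0.29 to -0.80, -1.96 and -1.55, a change of -1.99 ± 0.26 (SE), and AT4G11290 changed by -1.95 ± 0.19 (SE). PYK10 fell by 0.35 ± 0.11 (SE), a call lost in 6 of the alternatives, and the other 3 of the 4 root markers did not pass. The median level of the 4 at 2 h was -1.70, -1.51 and -1.61 in polysomal RNA and -1.33, -0.88 and -1.26 in total RNA. PYK10 was high, but a fall at such low polysomal levels could hardly be measured. In total RNA all 4 fell, and the difference between the pools passed for none of the 4 by limma. The part of a lower share of root RNA in these falls was not tested. Nuclear photosynthesis genes had 1 rise, SBPASE by 0.24, a call lost in 11 of the alternatives, and no fall among the 10 measured of 55 listed.

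RNA made in organelles is translated there and is not bound by tagged cytosolic ribosomes. The median level of 69 plastid-encoded genes was between -0.72 and 0.11 on the 6 polysomal arrays and between 4.74 and 5.33 in total RNA from hypoxia. Of these 69 genes 3 rose and 1 fell, smaller shares than the 16% and 17.5% of all probe sets, and the median change was 0.19. Without replicate 1 at 2 h 7 rose, and the other settings that moved the count gave 5 to 7, while 2 fell with the replicate number as a block or without replicate 3 at 9 h. The rises were of rbcL, the large subunit of Rubisco, at 1.42 ± 0.26 (SE), and of psbB and psbC, antenna proteins of photosystem II, at 1.34 ± 0.36 and 1.24 ± 0.25 (SE). For rbcL the levels were -1.27, -1.56 and -0.80 at 2 h and 0.32, -0.12 and 0.44 at 9 h, against 3.95 to 4.91 on the total arrays. The call for psbB was lost without replicate 2 at 2 h. The plastid gene rps18 fell by 0.80, a call lost without replicate 2. None of the 16 mitochondrion-encoded genes passed, and their median levels were -1.76 to -1.55.

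The hour of the night was addressed with polysomal RNA from seedlings kept in air for 2 h and 9 h, which share no array with the hypoxia groups. There 910 probe sets rose (4%) and 968 fell (4.26%), or 8.26% in either direction. Across probe sets the changes in air and in hypoxia correlated with r = 0.251 (rho = 0.149), as a description over features that are not independent. Of the 3641 rises in hypoxia, 328 (9.01%) were also rises in air, which is 36% of the 910, and 103 were falls. Of the 3988 falls, 448 (11.2%) were also falls in air, which is 46.3% of the 968. The change in hypoxia minus the change in air passed the test for 2078 probe sets in the upward direction (9.14%) and for 2637 in the downward direction (11.6%), or 20.7% in all. Without replicate 2 of all groups these were 996 and 1667. Of 275 named genes that rose at least 2-fold in hypoxia, 232 (84.4%) passed that difference, as did 360 (87.0%) of 414 that fell at least 2-fold. These genes had been chosen for their change in hypoxia, so the shares are a description.

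Among genes that also passed in hypoxia, 2 of the 4 with the largest positive difference from air encode small heat shock proteins. AT1G53540 changed by -0.07 in air, with levels of -1.99, -1.62 and -1.16 at 2 h and of -1.84, -1.51 and -1.63 at 9 h, and the difference between the conditions was 4.33 ± 0.76 (SE, adjusted p = 1.7e-04). AT1G63530, AT1G08310 and AT2G29500 followed at 4.30, 3.65 and 3.60. On the low side AT3G07010 (-2.68), AT3G54400 (-2.59), AT5G03230 (-2.54) and AT4G11190 (-2.53) stood out. AT5G03230, of a family of senescence regulators, rose in air from 2.51, 2.13 and 2.91 to 4.20, 4.04 and 4.03 and fell in hypoxia from 3.58, 3.74 and 3.44 to 2.61, 2.95 and 2.32. The arrays moved in opposite directions in the 2 conditions, without overlap in either.

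For 3 of the 4 measured clock-regulated genes the change differed between air and hypoxia, and it was smaller in hypoxia. COR27, an evening gene of the clock, had levels of 1.22, 1.18 and 1.18 at 2 h and of -2.17, -2.42 and -1.86 at 9 h in air. In hypoxia they were 0.29, 0.63 and 0.86 at 2 h and -0.33, -0.03 and 0.26 at 9 h. Its fall was -3.34 in air and -0.63 ± 0.17 (SE) in hypoxia, and the difference was 2.71 (adjusted p = 2.2e-08). The call in hypoxia was lost without replicate 2. CCL fell by 2.16 in air and by 0.55 in hypoxia, a difference of 1.61 (adjusted p = 1.7e-06). AT1G69570, a cycling DOF factor that represses flowering, rose by 3.09 in air, from -1.03, -1.19 and -0.92 to 2.30, 1.62 and 2.20, and by 1.41 in hypoxia, from -0.82, -0.79 and -0.87 to 0.34, 1.10 and 0.29. That difference was -1.68 (adjusted p = 7.4e-05). GI, the other clock gene of the 4 measured, did not pass in hypoxia. Directions of the list as a whole were 1 rise and 2 falls among 4.

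The same interval in total RNA, from 3 other arrays at each time, asks how far the polysomal change followed the amount of mRNA. In total RNA 3515 probe sets rose (15.5%) and 3873 fell (17%). Across probe sets the polysomal and the total change correlated with r = 0.866 (rho = 0.781), as a description. Of the polysomal rises 2096 (57.6%, or 59.6% of the total rises) were also rises in total RNA and 6 were falls, and of the polysomal falls 2867 (71.9%, or 74% of the total falls) were also falls and 8 were rises. The difference itself passed for 148 probe sets (0.651%), 79 higher and 69 lower in polysomal RNA, where 1112 and 1247 had an unadjusted p under 0.05. The replicate number, which pairs these samples, moved the counts to 150 and 147 when used as a block. Leaving out replicate 3 of all groups gave 9 and 3, and scaling on the hybridisation controls 5 and 0. Of 275 named genes that rose at least 2-fold in polysomal RNA, 250 (90.9%) also rose in total RNA. Of 414 that fell at least 2-fold, 396 (95.7%) also fell in total RNA. The difference between the pools passed for 9 (3.27%) and 11 (2.66%) of them. These genes had been chosen for their polysomal change, so the shares are a description.

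Among genes whose polysomal change exceeded the total change, AT3G07600, with a heavy-metal-associated domain, had polysomal levels of -1.74, -1.79 and -1.89 at 2 h and of 0.73, -0.20 and -0.48 at 9 h. Its total levels were -1.73, -1.55 and -1.53 at 2 h and -1.59, -1.35 and -1.53 at 9 h. It rose in the polysomal pool, and the difference was 1.71 (adjusted p = 6.5e-04), a call lost without replicate 2. All its total levels, and its polysomal levels at 2 h, were -1.35 or lower, among the dimmer probe sets. GSTU25, a glutathione transferase, rose by 1.02 in polysomal RNA, from 0.78, 0.42 and 0.60 to 1.25, 1.67 and 1.92, and changed by -0.53 in total RNA, from 0.59, 0.34 and 0.62 to -0.16, 0.09 and 0.04, a difference of 1.54 (adjusted p = 0.0082). The call was lost without replicate 2 or 3. AT1G68240 rose in both pools, by 3.57 and 2.00, a difference of 1.57 (adjusted p = 0.0062) that did not pass without replicate 1 or 2. AT5G62340, an inhibitor of invertase or pectin methylesterase, fell by 0.53 in polysomal and by 2.20 in total RNA, and the difference of 1.67 (adjusted p = 2.3e-04) did not pass without replicate 3. Its polysomal levels were -0.98, -1.17 and -1.23 at 2 h and -1.62, -1.77 and -1.56 at 9 h, while total levels went from 0.24, 0.59 and 0.88 to -1.66, -1.72 and -1.50. Both pools ended at -1.50 or lower, and the polysomal pool had little room to fall. Of the 34 named genes with a higher polysomal change, 19 had no passing polysomal change and a fall in total RNA. The median level of the 34 at 2 h was -1.24 in polysomal and 0.19 in total RNA. At such low polysomal levels a fall could hardly be measured.

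On the other side, AT3G62930, a glutaredoxin, fell by 1.93 ± 0.20 (SE) in polysomal RNA, from 0.61, 0.71 and 0.16 to -1.37, -1.47 and -1.49, and by 0.52 in total RNA, a difference of -1.41 (adjusted p = 0.020). Its total levels were already -1.23, -0.67 and -1.19 at 2 h, and the call was lost when any replicate number was left out. AT1G78020, with a plant-specific zinc finger, fell by 0.74 in polysomal RNA, from 2.97, 3.26 and 2.96 to 2.37, 2.29 and 2.32, while its total levels went from 3.27, 2.97 and 3.17 to 3.81, 3.39 and 3.78. The difference was -1.26 (adjusted p = 0.0015). AT3G04500, an RNA-binding protein, fell from 2.14, 2.28 and 2.17 to 1.11, 1.12 and 1.14 in polysomal RNA, while total RNA stayed between 0.88 and 1.18. The groups were tight and separate in the first pool and overlapped in the second, and the difference was -1.09 (adjusted p = 0.0013). AT1G22430, of the zinc alcohol dehydrogenase family, differed by -1.03 (adjusted p = 0.024). These 3 calls were each lost without replicate 2 and on the hybridisation controls. The calls for AT1G78020 and AT1G22430 were also lost without replicate 3, and that for AT3G04500 without replicate 1. For AT1G22430 the call was lost in 5 of the alternatives. In the ribosomal lists the difference passed for none of the 68 large-subunit genes and for 1 of the 46 small-subunit genes, with medians of -0.21 and -0.24.

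**Figure D5:**
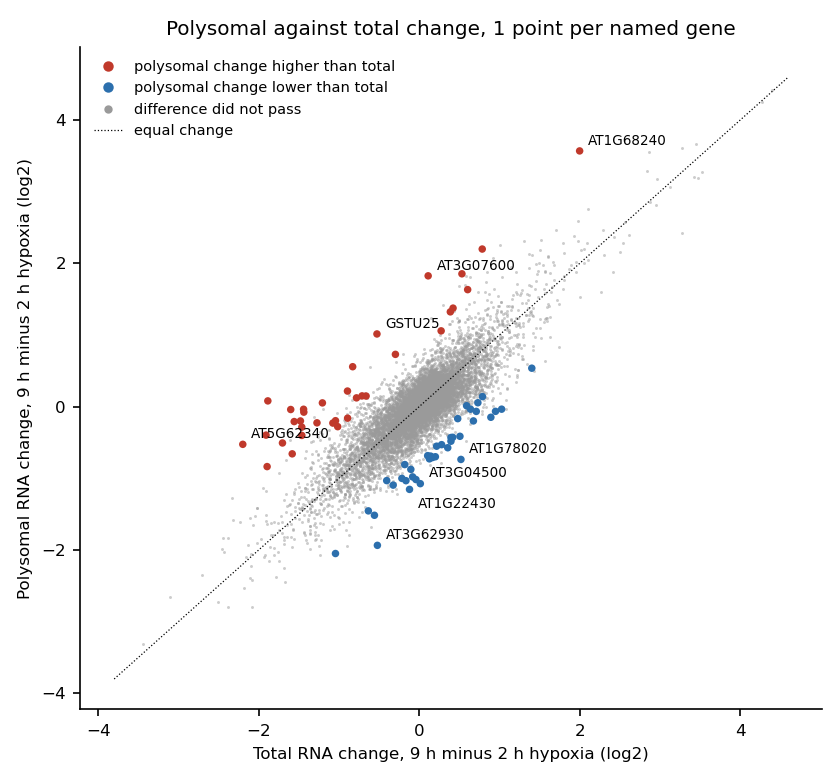
Change from 2 h to 9 h of hypoxia in total RNA (log2, x axis) and in polysomal RNA (log2, y axis), with 1 point per named gene, the line of equal change, and in colour the genes whose difference passed, red where the polysomal change was higher and blue where it was lower. Most genes lie along the line (r = 0.866 over probe sets), and AT3G07600 (1.83 polysomal, 0.11 total) and AT3G62930 (-1.93 polysomal, -0.52 total) lie off it.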

How the data were processed

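The authors deposited log2 signals for 30 Affymetrix arrays. The submitters' processing notes name RMA for them. The sources used here give neither its version nor the set of arrays it was run on. The 64 control sets among the 22810 were dropped. Each array's mean over the other 22746 was subtracted. limma 3.58.1 in R 4.3.3 was fitted to all 30 arrays with a mean for each of 10 groups and 20 residual degrees of freedom, with Benjamini-Hochberg adjusted p-values at a threshold of 0.05 and no filter, and was tested on simulated data. Contrasts were 9 h minus 2 h in polysomal RNA from hypoxia and from air and in total RNA from hypoxia, and their differences.

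The probe table named 1 gene for 13513 probe sets, several for 503 and none for 8730. The probe set with the highest mean stood for each of 13355 genes. Named were the 12 largest rises and falls without overlap, up to 4 passing members per list, 4 per direction of each difference, and 14 fixed genes, of which 3 were measured. Genes named for a difference had also to pass the polysomal 9 h minus 2 h hypoxia comparison. Members and lists were chosen with earlier results of these data known. Same-numbered arrays at 2 h and 9 h deviated together (r = 0.286, 0.157 and 0.175), so numbers pair the samples. Alternatives were other scalings, a filter on dim probe sets, fewer arrays, a replicate block, an intensity trend and arrays left out. The number of arrays limits the precision. Sequences were not used here.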

Additional observations from a re-analysis of the deposited data

Results flagged for a closer look

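Several changes from 2 h to 9 h differed between conditions or RNA pools by the limma test of the difference itself. The change in polysomal RNA was larger in hypoxia than in air for AT1G53540 by 4.33, AT1G63530 by 4.30, AT1G08310 by 3.65 and AT2G29500 by 3.60. It was lower in hypoxia than in air for AT3G07010 (-2.68), AT3G54400 (-2.59), AT5G03230 (-2.54) and AT4G11190 (-2.53). Over all probe sets 2078 differed upward and 2637 downward. The change in polysomal RNA minus that in total RNA was 1.71 for AT3G07600, 1.67 for AT5G62340, 1.57 for AT1G68240 and 1.54 for GSTU25. It was -1.41 for AT3G62930, -1.26 for AT1G78020, -1.09 for AT3G04500 and -1.03 for AT1G22430. Here 79 probe sets differed upward and 69 downward. No group held more than 3 arrays, so no array was tested as an outlier.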

How the results depend on the processing

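No gene named by the rule changed direction under any alternative run. The median change of all probe sets was 0.059 as reported, -0.136 without centring, 0.131 with array medians, 0.014 after quantile normalization and -0.122 on the hybridisation controls, a scaling chosen after seeing the data, so changes below these shifts depend on the scale. The medians of the core hypoxia, fermentation, calmodulin-like, cold, photosynthesis, respiration, root marker, glycosyltransferase, translation and mitochondrion-encoded lists change sign among these scalings. In polysomal RNA from hypoxia, rises numbered 1675 without centring, 2272 with only the 6 arrays, 2230 to 3457 with arrays left out and 676 on hybridisation controls, and falls 6671 without centring. For hypoxia minus air, rises were 1100 without centring, 996 to 2066 with arrays left out and 262 on hybridisation controls, and falls 4359, 1583 to 2612 and 1609. For polysomal minus total, rises were 51 without the dimmest 40%, 150 with the replicate block, 9 to 94 with arrays left out and 5 on hybridisation controls. Its falls were 515 without centring, 106 with array medians, 39 without the dimmest 40%, 147 with the block, 3 to 96 with arrays left out and 0 on hybridisation controls. The cause was not tested. The block changed no other count of probe sets by over 1.5 times. Small rises of dim probe sets carry little weight, since the dimmest 40% of them had median changes of 0.08 to 0.13 when binned by level.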

Other observations

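Some genes outside the naming rule changed in air and hardly in hypoxia, and were chosen after their values were seen. LHCB4.2, an antenna protein of photosystem II, had polysomal levels of 4.94, 4.93 and 5.03 at 2 h and of 6.77, 6.90 and 6.84 at 9 h in air. In hypoxia the levels were 4.16, 4.78 and 3.97 at 2 h and 4.00, 4.46 and 4.26 at 9 h. The change was 1.87 in air and -0.06 in hypoxia, and the difference was -1.93 (limma adjusted p = 1.2e-06). EXPA8, an expansin, changed by 1.83 in air and by -0.12 in hypoxia, a difference of -1.96 (limma adjusted p = 2.6e-04).

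Of 26 class III peroxidases 5 fell in polysomal and 13 in total RNA, with medians of -0.12 and -0.65. The median levels of the list were -1.39 to -1.07 on the 6 polysomal arrays and -0.33, 0.19 and -0.26 in total RNA at 2 h. At such low polysomal levels a fall could hardly be measured. The difference between the pools passed for 1 of the 26 genes, AT4G26010, at 1.97, with a change of 0.08 in polysomal and of -1.89 in total RNA.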
